A study of Canis lupus familiaris with 2 samples.

Results

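The BCL2 family decides whether a cell opens its mitochondrial outer membrane and dies by apoptosis, and 10 of its genes were examined in MDCK cells: PMAIP1, BBC3, BCL2L11, BID, BAD, BAX, BAK1, MCL1, BCL2L1 and BCL2. They were chosen by name from the 23510 features of the deposited expression files, with the 0 value of PMAIP1 in one culture already known when the set was drawn up. Of the 10 genes, 8 were listed under their symbols. The other 2, BAK1 and BCL2L11, were listed as LOC481744 and LOC612867, which carry the RefSeq gene identifiers 481744 and 612867 of these genes, so every member had a value in both files. MDCK is an established dog kidney line that forms a columnar epithelial sheet. Cells were grown on a semipermeable insert, and RNA was taken at day 3 from 1 culture under medium 2 cm high, which the labels call no pressure, and 1 culture under medium 50 cm high. Values of these cultures are given as at 2 cm and at 50 cm. The labels give both cultures the same cell line, culture medium and serum, and no drug is named for either. Each group was 1 culture, so none of the values that follow has a replicate error, and differences between the cultures could not be tested.

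In the family, BH3-only proteins such as those encoded by PMAIP1 and BBC3 sense damage or stress. They bind the anti-apoptotic proteins, which hold the effectors BAX and BAK1 in check, and some of them can also activate the effectors directly. When the effectors are freed they form pores in the mitochondrion, cytochrome c leaks out, and caspases are switched on. Many of these proteins are controlled by phosphorylation, cleavage or degradation, so an RNA level is only one layer of their control.

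The values are FPKM, the fragments on a gene divided by the length of its exons and by the size of the library, which allows levels of different genes to be set side by side within a culture. At 2 cm 15125 features had a value above 0, and at 50 cm 14951 did. The number of reads per library is not known. Ratios of the lowest values clustered at 1.0977, the ratio left by equal numbers of reads, so that 1 read was worth 9.77% more FPKM at 50 cm. As a check of the label, 8 of 9 epithelial markers exceeded 1 FPKM in both cultures, with KRT8 at 1641 and 1561 FPKM at 2 and 50 cm, respectively. The marker that did not was the kidney cadherin CDH16, at 1.96 and 0.676 FPKM, so the check covers epithelium and not kidney origin. All 5 fibroblast and all 3 endothelial markers lay below 0.3 FPKM, and the 3 leukocyte markers that could be matched, of 4 listed, were at 0 in both cultures.

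PMAIP1, which encodes the BH3-only protein NOXA, was listed at 0 FPKM at 2 cm and at 60.0 FPKM at 50 cm. NOXA binds chiefly to MCL1, and its gene is a target of stress-induced transcription factors. At 50 cm PMAIP1 had rank 4 among the 10 members and stood above 88.3% of the features with a value above 0, and its level was 0.935 times that of MCL1. At 2 cm it stood last. In RNA of a whole culture, more cells with a transcript and more transcript per cell cannot be told apart. Of 11536 features above 1 FPKM in at least one culture, 0.243% were at 0 in the other, as PMAIP1 was, and 3.33% either were at 0 in the other or differed by more than 2-fold. No fold change was computed for PMAIP1, because a ratio to a value listed at 0 has no size.

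The 0 value of PMAIP1 was set beside all other values of 0. A further 7740 features were at 0 in both cultures, 645 features including PMAIP1 were at 0 at 2 cm only, and 819 were at 0 at 50 cm only, so 6.23% of all features had a 0 in exactly one culture. Nearly all of these lay close to 0 in the other culture as well. The 645 had a median of 0.0648 FPKM at 50 cm, and 6 of them exceeded 1 FPKM there. The 819 had a median of 0.0709 FPKM at 2 cm, and 22 of them exceeded 1 FPKM.

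PMAIP1 headed the 645 features. The next were LOC100687170 at 11.6 FPKM, LOC102155396 at 4.71 FPKM, LOC102156337 at 2.63 FPKM, LOC100688233 at 1.35 FPKM and LOC102155351 at 1.08 FPKM, none of which has a gene name here. PMAIP1 was thus 5.16 times the next value. In the opposite direction the highest value was 5.61 FPKM, for LOC102154041. Of 2392 features between 30 and 90 FPKM at 50 cm, PMAIP1 was the only one at 0 at 2 cm, and the lowest 2-cm value among the other 2391 was 4.403 FPKM. Of 2291 features between 30 and 90 FPKM at 2 cm, 0 were at 0 at 50 cm, and the lowest 50-cm value was 9.57 FPKM. These counts place the pair of PMAIP1 values apart from those of the other features at its level, and PMAIP1 had been chosen for them.

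**Figure D1:**
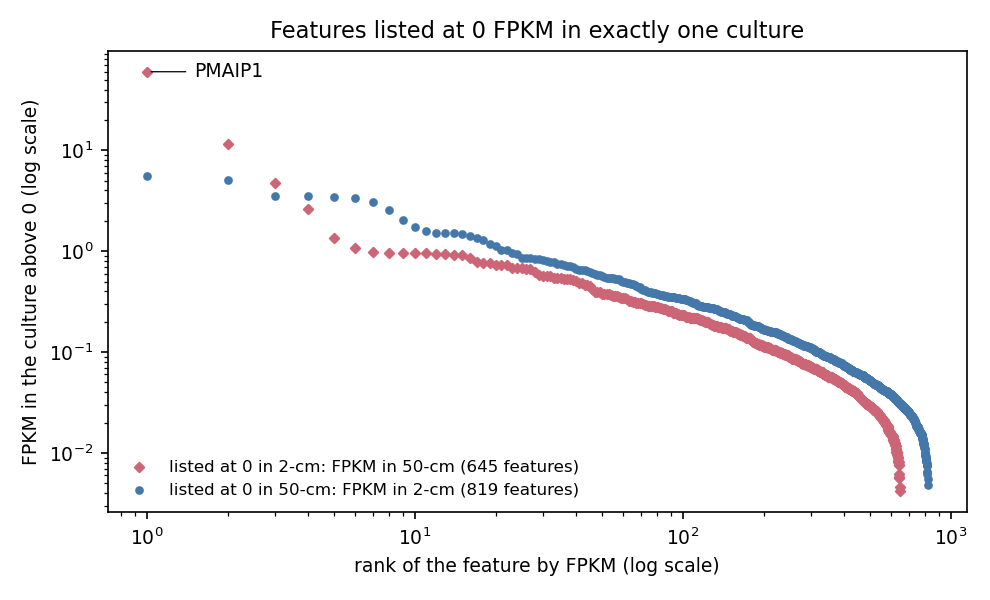
Features listed at 0 FPKM in exactly one culture, ranked by their FPKM in the other culture (both axes log scale, 1 culture per medium height). Diamonds are the 645 features at 0 at 2 cm and circles the 819 at 0 at 50 cm. PMAIP1, at 60.0 FPKM, stands above the next feature, at 11.6 FPKM.

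An FPKM value of 0 does not by itself mean that no RNA was present, since a quantification program can also write 0 for a locus whose estimate failed. The files hold no status for the estimate of any feature and no read counts. Of 96 genes listed as used by every cell, such as subunits of the proteasome, RNA polymerase II and ATP synthase, 87 could be matched to the files. ATP5O, a subunit of mitochondrial ATP synthase, was the only 1 of the 87 listed at 0, and it was at 0 in both cultures. None of the 87 was at 0 in one culture alone, and the other 86 exceeded 1 FPKM in both. The 0 of ATP5O was shared by both cultures, unlike that of PMAIP1, so it is no example of a 0 in one culture alone. Whether the 0 of PMAIP1 was a failed estimate or an absence of reads was not tested, and the FPKM values alone cannot tell these apart.

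The other 9 members were above 1 FPKM in both cultures, and 0 of the 9 differed by more than 2-fold between them. Over all 11057 features above 1 FPKM in both cultures, 1.67% differed by more than 2-fold in either direction. The paper reports a larger number of genes under the same minimum and threshold. Why the counts differ was not tested, so this share holds for the deposited values as used here. BBC3 and BCL2 were the 2 members past 1.5-fold, a threshold that 7.19% of all features passed. BBC3 was lower at 50 cm, as were 5.06% of all features by this threshold, and BCL2 was higher, as were 2.13%. Of the 9 members, 4 were higher and 5 lower at 50 cm, and BID, among the 4, turned lower when the cultures were rescaled. Of all features 52.6% were higher. The median log2 ratio of 50-cm over 2-cm FPKM was -0.0062 for these 9 members and 0.0146 for all 11057 features. As no replicates existed, a yardstick called the spread stands beside the log2 ratios of the members. It is the scaled median absolute deviation of log2 ratios among the 500 features closest in FPKM, so it describes variation across genes and is no error of measurement.

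**Figure D2:**
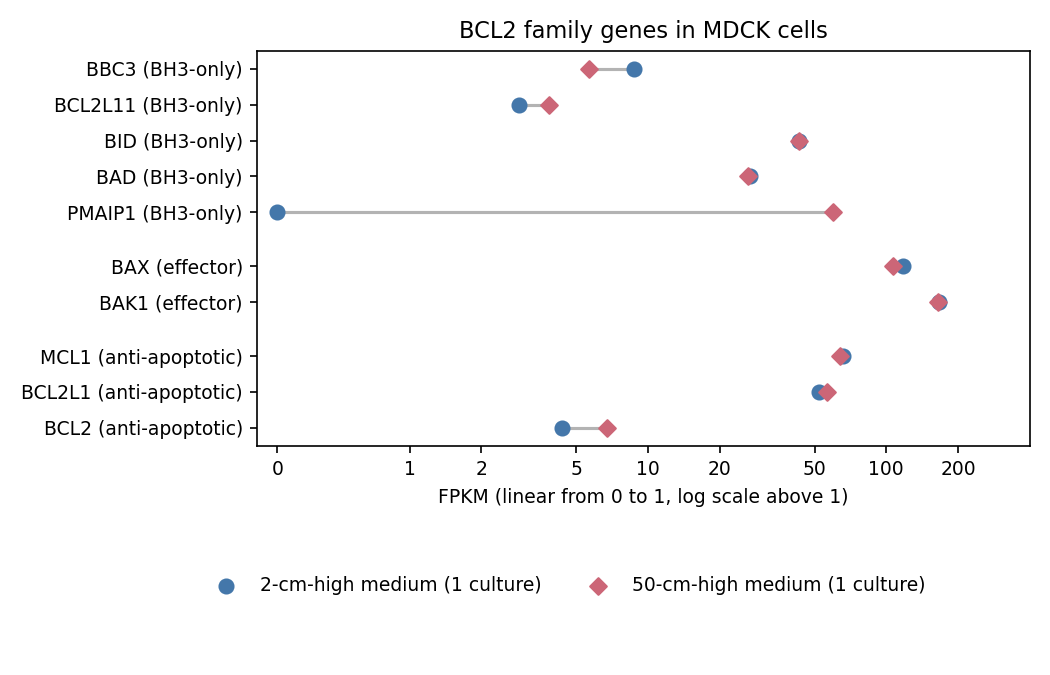
FPKM of each of the 10 genes at 2 cm (circles) and at 50 cm (diamonds), 1 culture each, grouped by role. The axis is linear from 0 to 1 FPKM and a log scale above 1. Symbols nearly coincide for BID, BAD, BAK1 and MCL1, whereas PMAIP1 goes from 0 to 60.0 FPKM.

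Among the BH3-only members, BBC3 was the one with the largest ratio away from 1 after PMAIP1 was set aside. BBC3, which encodes PUMA, a protein that binds every main anti-apoptotic member, had 8.74 FPKM at 2 cm and 5.63 at 50 cm. Its ratio was 0.644, or -0.63 on the log2 scale, which was -2.05 times the spread. BBC3 was thus lower in the culture in which PMAIP1 was high.

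BCL2L11 encodes BIM, a BH3-only protein that responds to loss of growth factors and of attachment. It had 2.89 FPKM at 2 cm and 3.84 at 50 cm. Among the members examined this was the lowest level in the second culture and the lowest above 0 in the first. Its ratio of 1.33 lay 1.01 spreads above 0 on the log2 scale, and the spread was wide at this low level (0.406 on the log2 scale).

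BID links death receptors to the mitochondrion once caspase-8 has cut it. Its level was 43.21 FPKM in both cultures, the smallest difference of any member. BAD, which is held inactive by phosphorylation downstream of growth factors, had 26.9 and 26.4 FPKM at 2 and 50 cm, respectively (ratio 0.979). Both genes were alike in the cultures to within a small part of the spread. The summed FPKM of BBC3, BCL2L11, BID and BAD was 81.7 at 2 cm and 79.0 at 50 cm. With PMAIP1 as listed, the sum at 50 cm was 139 FPKM, of which PMAIP1 made up 43.2%.

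The effectors were the most abundant members in both cultures. BAK1 had 166 FPKM at 2 cm and 165 at 50 cm (ratio 0.996). BAX had 117 and 107 FPKM, respectively (ratio 0.913), and its log2 ratio of -0.13 lay within the spread of 0.189. BAK protein sits on the mitochondrion in healthy cells, whereas BAX is mainly cytosolic until activated. BAX made up 41.4% of the summed FPKM of the effectors at 2 cm and 39.3% at 50 cm.

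**Figure D3:**
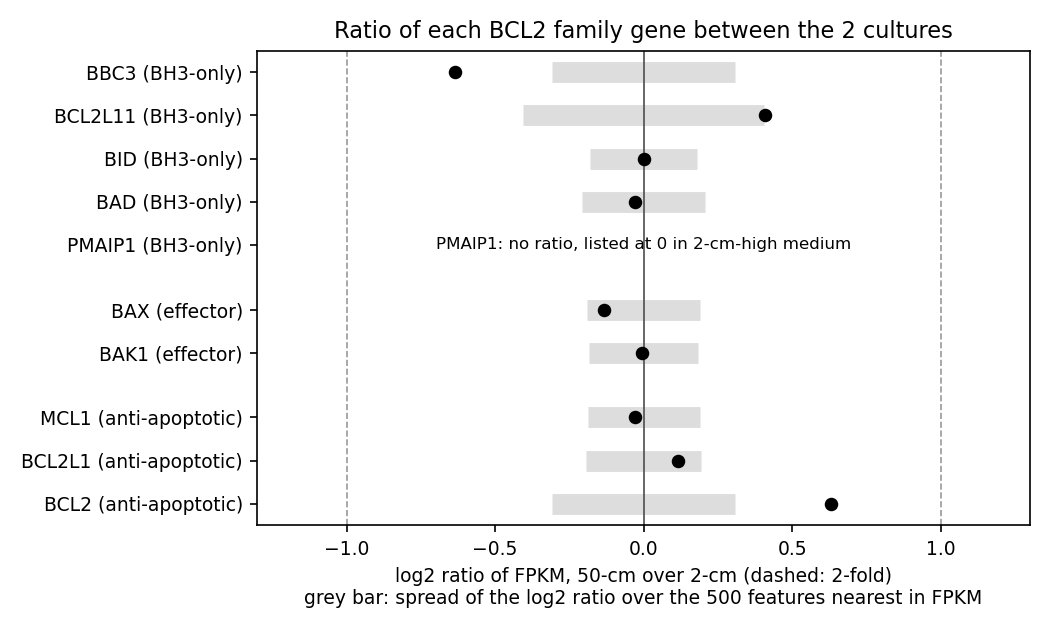
Log2 ratio of 50-cm over 2-cm FPKM for the 9 members with a value above 0 in both cultures (points, 1 culture per medium height). Grey bars extend by the spread across the 500 features nearest in FPKM to either side of 0, and dashed lines mark 2-fold. BBC3 at -0.63 and BCL2 at 0.63 lie outside the bars, BCL2L11 at 0.41 lies at the edge, and the others lie inside.

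Of the anti-apoptotic members, MCL1 and BCL2L1 were abundant and BCL2 was not. MCL1, a short-lived protein and the main partner of NOXA, had 65.5 FPKM at 2 cm and 64.2 at 50 cm (ratio 0.980). BCL2L1, from which BCL-XL is made, had 52.3 and 56.6 FPKM, respectively (ratio 1.08). Gene-level FPKM does not separate BCL-XL from the pro-apoptotic splice form BCL-XS. Both ratios lay within the spread.

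BCL2, the founding member of the family, had 4.34 FPKM at 2 cm and 6.73 at 50 cm, a ratio of 1.55 and a log2 ratio of 0.63 (2.05 times the spread). It was the highest ratio among the 9 members, and its sign was opposite to that of BBC3. The level of BBC3 was 2.01 times that of BCL2 at 2 cm and 0.838 times at 50 cm, so their order was turned. BAX was 26.99 times BCL2 in the first culture and 15.9 times in the second, and most of that shift lay in BCL2, whose log2 ratio was larger in size than the -0.13 of BAX.

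The summed FPKM of MCL1, BCL2L1 and BCL2 was 122 at 2 cm and 128 at 50 cm (ratio 1.04). MCL1 made up 53.6% of it in the first culture and 50.3% in the second, BCL2L1 42.8% and 44.4%, and BCL2 3.55% and 5.27%. The sum of the effectors was 2.32 times the sum of these anti-apoptotic members at 2 cm and 2.13 times at 50 cm. The 4 BH3-only members other than PMAIP1 came to 0.669 times the anti-apoptotic sum at 2 cm and 0.619 times at 50 cm. With PMAIP1 as listed the second value was 1.09. These ratios, and those of the effectors, depend on which genes are summed. With the anti-apoptotic genes BCL2L2 and BCL2A1 added, the anti-apoptotic sum was 194 and 202 FPKM at 2 and 50 cm, respectively. The second exceeds the 139 FPKM of the 5 BH3-only members at 50 cm. Of the 51.8 FPKM by which the sum of all 10 members was higher at 50 cm than at 2 cm, PMAIP1 gave 60.0 FPKM, and the other 9 together were lower at 50 cm.

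In order of FPKM, the members at 2 cm were BAK1, BAX, MCL1, BCL2L1, BID, BAD, BBC3, BCL2, BCL2L11 and PMAIP1. At 50 cm they were BAK1, BAX, MCL1, PMAIP1, BCL2L1, BID, BAD, BCL2, BBC3 and BCL2L11. Apart from the move of PMAIP1 from rank 10 to rank 4, the order differed only in that BCL2 and BBC3 changed places. With no replicates, it cannot be said which neighbours in these orders differ beyond error.

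The wider BCL2 family was described from a list of 16 other genes, of which 15 could be matched and 12 were above 1 FPKM in both cultures. Of these 12, 3 were lower by more than 2-fold at 50 cm and 0 were higher, whereas 1.28% of all features were lower by more than 2-fold and 0.389% higher. BNIP3, listed as LOC607408 and matched by its gene identifier, had 89.4 FPKM at 2 cm and 25.2 at 50 cm (ratio 0.282). BNIP3L had 34.05 and 10.99 FPKM, respectively (ratio 0.323). BNIP3 and BNIP3L encode mitochondrial receptors for mitophagy, the removal of mitochondria by autophagy, and are well known as genes induced by hypoxia. BMF, a BH3-only gene whose protein is tethered to the cytoskeleton through a dynein light chain and released when cells detach, had 9.20 and 3.33 FPKM (ratio 0.362). The log2 ratios of BNIP3, BNIP3L and BMF lay at -10.1, -8.38 and -5.07 times the spread.

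The rest of the wider family stayed under 2-fold where the values exceeded 1 FPKM. BCL2A1, an anti-apoptotic gene known as a target of NF-kappaB, had 61.3 FPKM at 2 cm and 66.4 at 50 cm, a level close to that of MCL1 in both cultures. BCL2L2, which encodes BCL-W, had 10.1 and 7.94 FPKM, respectively (ratio 0.790). BCL2L15 was at 9.26 and 6.01 FPKM (ratio 0.649). The BH3-only gene BIK was at 0 in both cultures, and HRK was at 0 at 2 cm and at 0.0740 FPKM at 50 cm. The median log2 ratio of the 12 genes was -0.12. BCL2A1, BCL2L2, BCL2L15 and BIK were singled out after their values were seen.

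**Figure D4:**
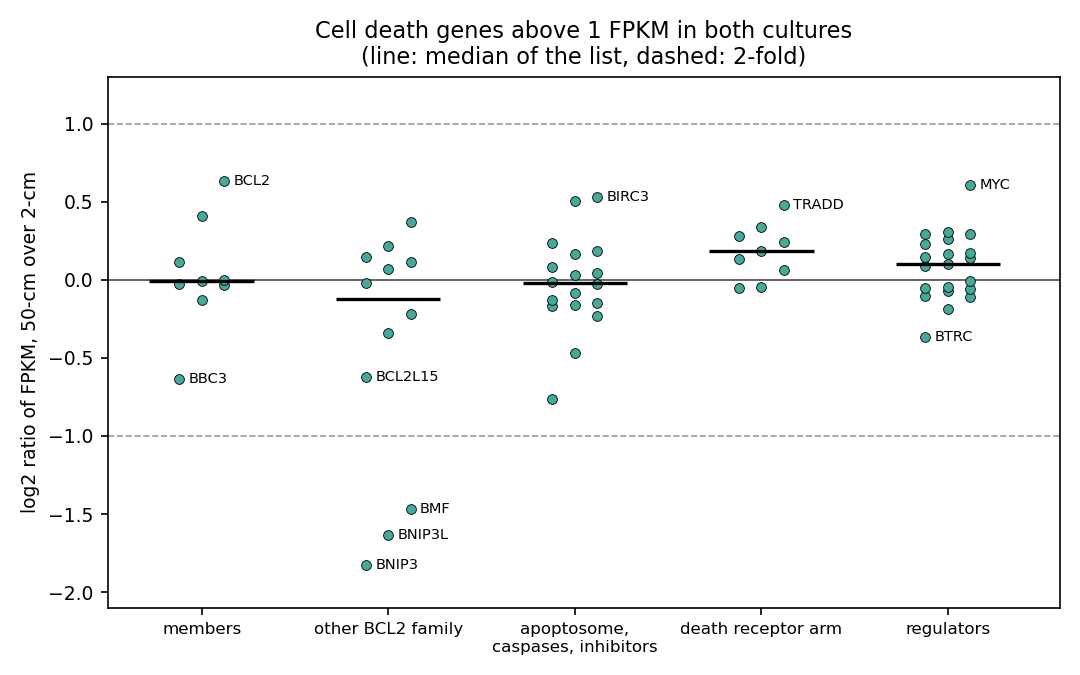
Log2 ratio of 50-cm over 2-cm FPKM for the 9 members and 4 lists of related genes, each point a gene above 1 FPKM in both cultures (1 culture per medium height). Bars mark the median of a list and dashed lines 2-fold. BNIP3, BNIP3L and BMF are the only points past 2-fold, all of them lower at 50 cm.

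Downstream of the mitochondrion, all 18 listed genes of the apoptosome, the caspases, their inhibitors and the proteins that leave the mitochondrion with cytochrome c were above 1 FPKM in both cultures. None of the 18 differed by more than 2-fold, with 8 higher and 10 lower at 50 cm and a median log2 ratio of -0.02. The highest ratio was that of BIRC3, which encodes the ubiquitin ligase cIAP2, with 9.27 FPKM at 2 cm and 13.4 FPKM at 50 cm (ratio 1.45).

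The death receptor arm reaches the BCL2 family through BID. Of 12 listed genes, 11 could be matched and 9 were above 1 FPKM in both cultures, and none of these differed by more than 2-fold. Of the 9, 7 were higher at 50 cm, with a median log2 ratio of 0.19, beside 52.6% higher and a median of 0.0146 over all features above 1 FPKM in both cultures. Of the genes listed as used by every cell, 74 of 86 were higher, with a median of 0.07, so a count of this kind is not particular to the death receptor arm. TRADD, an adaptor of TNF receptor 1, had the highest ratio, with 32.3 FPKM at 2 cm and 45.05 FPKM at 50 cm (ratio 1.40). CASP10 had the lowest, 0.965, with 10.95 and 10.6 FPKM. The ligand genes TNF and FASLG were at 0 in both cultures.

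Genes that control the family by transcription, phosphorylation or degradation made up a list of 22, of which 21 were above 1 FPKM in both cultures. None of these differed by more than 2-fold, 12 were higher and 9 lower at 50 cm, and the median log2 ratio was 0.10. MYC had the highest ratio, with 57.7 FPKM at 2 cm and 88.0 FPKM at 50 cm (ratio 1.53, log2 ratio 3.30 times the spread). BTRC, a subunit of a ubiquitin ligase, had the lowest, with 5.61 and 4.34 FPKM (ratio 0.775, log2 ratio -1.25 times the spread). ATF4, a stress-induced factor known to drive PMAIP1 transcription, had 505 and 536 FPKM (ratio 1.06), within the spread. MDM2, which encodes a ubiquitin ligase, was at 66.6 and 81.7 FPKM (ratio 1.23, log2 ratio 1.53 times the spread). ATF4 and MDM2 were singled out after their values were seen.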

How the data were processed

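RNA of 2 MDCK cultures, 1 per medium height, was sequenced from stranded mRNA libraries as single-end reads. The authors mapped the reads to CanFam3.1 (TopHat 2.0.13, Bowtie 2 2.2.3, SAMtools 0.1.19) and deposited FPKM values from Cuffnorm 2.2.1. Annotation and scaling method are not given in the sources used here. Features listed by gene identifier were named through a RefSeq table of assembly UU_Cfam_GSD_1.0. The 50-cm value was divided by the 2-cm value with no pseudocount, where each exceeded 1 FPKM, with the study's threshold of 2-fold. No test was run, and an interval for counting error would need read counts. Members and lists were chosen with earlier results of these data known. Named genes were the members, the 5 highest other features at 0 where PMAIP1 was 0, and in each list those past 2-fold or, without any, the extremes, plus any at 0 in one culture. Alternatives were pseudocounts of 0.1 and 1, minima of 0, 5 or 1 in either culture, a 1.5-fold threshold, rescaling, and a wider anti-apoptotic sum. Scripts (Python 3.11.15, numpy 2.4.6, pandas 2.3.3, matplotlib 3.10.9) were tested on simulated data. Some genes of the lists are counted but not reported here by name.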

Additional observations from a re-analysis of the deposited data

How the results depend on the processing

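With 1 culture per medium height, no replicate could be left out. No paired analysis was possible because each group held 1 sample and the result comes from no test. Across 45 recalculations of the 9 single-gene ratios, with a pseudocount or another scaling, no log2 ratio moved by as much as its spread, and the largest shift was 0.099. Only BID changed sign, to -0.0145 after recentring on the median, -0.0322 after rescaling to a common sum and -0.0648 after rescaling to a common upper quartile. The median log2 ratio of the members ran from -0.0711 (common upper quartile) to -0.0062 over its alternatives, and the medians of the 4 lists kept their sign with a minimum of 5 FPKM and after recentring. The count of members past 2-fold was 0, became 2 with a threshold of 1.5-fold, and became 1, PMAIP1, when 1 FPKM was required in only one culture. Over all features the count of 185 became 1216 with any value above 0, 62 above 5 FPKM, 92 with a pseudocount of 1 and 795 past 1.5-fold. When BCL2L2 and BCL2A1 joined the anti-apoptotic sum, the shares were 33.9% and 31.8% for MCL1, 27.0% and 28.05% for BCL2L1, and 2.24% and 3.33% for BCL2, in 2-cm-high and 50-cm-high medium, respectively. With neither read numbers nor exon lengths used here, the reads behind a member's value are unknown.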

Other observations

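The rows of both files share 1 order, which is alphabetical except for 1167 of the 23510 rows. All 1167 either differed by more than 2-fold or were at 0 in exactly one culture. The latter kind made up 295 of them, out of 1464 such features in all. PMAIP1 was the first of the 1167 rows and the only BCL2 family member of the 10 among them. Of 6440 features listed by a LOC identifier, 873 carry the gene identifier of a gene that RefSeq now lists under a symbol, among them BAK1, BCL2L11 and BNIP3, so that a search of the files by symbol alone misses the most abundant member of the family.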
